A study of Mus musculus with 13 samples.

Results

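The genes described here hold the mouse oocyte in meiotic prophase or take it out of that arrest: Gpr3, Wee2, Fzr1, Cdk1, Ccnb1, Ccnb2, Cdc25a, Cdc25b, Plk1 and Mos. These 10 genes were chosen by name for their known roles, out of 49585 annotated genes, not all with reads in every library. The RNA was of oocytes taken from ovaries of CD-1 mice at P5, after overnight culture of the ovaries and a γ dose of either 0.5 Gy or 0.2 Gy. The higher dose had duplicate libraries (2 per time) for 0, 1 and 4 h and single ones for 2.5 h and for 6 h after irradiation. The lower dose had 1 library for each of the same 5 times, and 0 h is the sample taken before irradiation. The mice carried no transgene or induced allele in the labels, the oocytes of a library were pooled from several ovaries, and all groups shared the overnight culture and the enzymatic isolation. In the labels, the first generation comprises replicate 1 at 0.5 Gy, the second comprises replicate 2 and the unreplicated times of 0.5 Gy, and the third comprises the 0.2 Gy libraries, so that dose and generation cannot be told apart. The read totals in the study's sequencing table match the files of the other generation for the 1 h and 4 h libraries, so values within a generation are given as labelled and with these libraries exchanged. Since nothing states that the libraries of a group came from separate cultures, their p-values measure the spread between these libraries.

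A fully formed oocyte waits in prophase because the complex of the kinase Cdk1 with a B-type cyclin, known as maturation-promoting factor, is kept inactive. The receptor Gpr3 keeps cAMP high, protein kinase A then favours the inhibitory kinase Wee2 over the phosphatases of the Cdc25 family, and the anaphase-promoting complex with its activator Fzr1 destroys cyclin B. At the exit from arrest Cdc25 phosphatases and Plk1 turn Cdk1 on, and Mos starts the MAP kinase cascade that later holds the egg in metaphase. Much of this control acts on protein phosphorylation, translation and degradation, which mRNA levels do not measure, and oocytes of newborn ovaries have not yet grown to the size at which they can resume meiosis.

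The windows around the transcription starts of 9 of the 10 genes (all but Mos) were read from RefSeq promoter sequences of GRCm38.p6, each spanning 250 bases before the start to 50 after it, and 4 are printed. Capitals mark TTTGAA, the core of the cell cycle homology region found in promoters of genes that peak in G2 and mitosis, and CCAAT, the box bound by NF-Y, on either strand, so that CCAAT on the other strand reads ATTGG. Cdk1, Ccnb2 and Plk1 are shown because they were the 3 members with TTTGAA, and Gpr3 because it was the member whose CPM separated late from early libraries at 0.5 Gy.
Cdk1: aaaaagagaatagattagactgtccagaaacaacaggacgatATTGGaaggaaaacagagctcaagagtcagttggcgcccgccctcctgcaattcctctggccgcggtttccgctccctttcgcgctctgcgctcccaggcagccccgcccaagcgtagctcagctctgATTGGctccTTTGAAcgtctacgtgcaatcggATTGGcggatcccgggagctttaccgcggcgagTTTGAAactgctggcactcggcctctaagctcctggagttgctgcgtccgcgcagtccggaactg
Ccnb2: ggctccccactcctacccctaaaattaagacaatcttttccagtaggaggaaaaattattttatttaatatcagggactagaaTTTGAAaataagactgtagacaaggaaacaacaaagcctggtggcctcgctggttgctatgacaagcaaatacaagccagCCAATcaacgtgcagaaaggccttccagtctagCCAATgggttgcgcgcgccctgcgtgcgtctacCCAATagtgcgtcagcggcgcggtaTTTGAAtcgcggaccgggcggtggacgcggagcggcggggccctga
Plk1: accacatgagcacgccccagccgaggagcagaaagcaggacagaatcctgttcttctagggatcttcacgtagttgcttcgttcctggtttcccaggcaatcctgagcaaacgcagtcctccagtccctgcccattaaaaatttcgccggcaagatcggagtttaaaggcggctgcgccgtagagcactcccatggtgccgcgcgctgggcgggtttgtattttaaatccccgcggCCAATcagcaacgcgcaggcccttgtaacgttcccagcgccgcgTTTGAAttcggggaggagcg
Gpr3: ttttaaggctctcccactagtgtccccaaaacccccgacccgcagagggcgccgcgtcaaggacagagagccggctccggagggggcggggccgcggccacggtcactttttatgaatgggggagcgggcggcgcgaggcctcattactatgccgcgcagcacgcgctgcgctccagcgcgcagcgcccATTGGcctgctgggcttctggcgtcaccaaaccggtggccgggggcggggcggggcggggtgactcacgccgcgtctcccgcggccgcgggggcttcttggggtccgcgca

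The Cdk1 window lies at chr10:69352863-69353162 on the minus strand, that of Ccnb2 at chr9:70421505-70421804 on the minus strand, that of Plk1 at chr7:122159185-122159484 on the plus strand and that of Gpr3 at chr4:133212487-133212786 on the minus strand. TTTGAA on either strand occurred in 17.9% of all 32851 windows and in 3 of the 9 member windows. In Cdk1 it began at -71 and -15 from the start, in Ccnb2 at -167 and +5, and in Plk1 at +31. CCAAT on either strand occurred in 37.4% of all windows and in 9 of the 9 member windows. The Ccnb2 window held it 3 times, beginning at -87, -54 and -21, and the Gpr3 window held it once, on the opposite strand at -61. The motifs share no bases in these windows. A match describes the letters and is not a bound site.

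The libraries held between 15709549 and 30430104 estimated reads, the fewest in replicate 2 of 0 h at 0.5 Gy. Oocyte markers were high in every library, with Sycp3, of the chromosome axis in meiosis, at 578 to 1190 CPM (a gene's reads relative to the TMM-normalized size of its library) and Gdf9, an oocyte growth factor, at 296 to 646. All 10 oocyte markers were detected in all 13 libraries, but none of 8 granulosa cell, 6 stroma or 16 dividing-cell markers had a library at 0. Summed over a list, oocyte markers held 3040 to 3960 CPM in the 13 libraries and stroma markers 1940 to 3390. Granulosa markers ranged from Amh, at 2.61 to 8.52 CPM, to Inha, at 595 to 1580. The summed level of the dividing-cell list was 2090 to 2430 CPM in the early and 1970 to 2260 in the late libraries of 0.5 Gy, and that of the granulosa list was 1420 to 2080 and 1500 to 2180. The values of all 10 members, Fzr1 and Cdc25b included, are therefore those of the whole cell mixture. Cdk1, Ccnb1, Ccnb2 and Plk1 are also used by dividing cells. For no member was the part of other cells in its values tested. In such bulk RNA, fewer cells of a type and less RNA per cell cannot be told apart. The summed level of 5 granulocyte genes was 451 CPM in replicate 2 of 0 h at 0.5 Gy and 5.44 to 15.4 in the other 12 libraries.

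Compared per length, as TPM, which corrects reads for transcript length, Cdk1 had the highest level of the genes and Gpr3 the lowest. In CPM, without that correction, Ccnb1 had a higher median than Cdk1, at 208 against 182. The median level of Cdk1 over 13 libraries was 160 TPM, with a range of 126 to 192, and 98.3% of protein-coding genes had a lower median. This TPM sums all Cdk1 transcripts. Short ones of 378 and 475 bases, annotated as retained introns, held 21.8% and 11.1% of its reads. A protein-coding one of 1253 bases held 64.1%. The part of the short transcripts in the TPM of Cdk1 was not tested. Ccnb1 followed with a median of 39.6 TPM, from 31.5 to 55.8, and Ccnb2 with 19.2 TPM, with the highest library at 23.7. Each of these 3 genes was above the next in 13 of 13 libraries. Fzr1 had a median of 10.3 TPM and was above Cdc25b in 12 of 13 libraries. Cdc25b at 7.74 TPM was above Plk1 at 7.47 in 7 libraries, and Plk1 was above Mos at 6.89 in 7, so that the order of these neighbours was not settled by their spread. Mos was above Wee2 in 10 libraries, and Wee2, at a median of 5.14 TPM, was above Cdc25a, at 2.84 TPM, in all 13. Gpr3 lay lowest in all 13 libraries, at a median of 0.974 TPM with a range of 0.28 to 2.22, and 47.6% of protein-coding genes had a lower median.

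**Figure D1:**
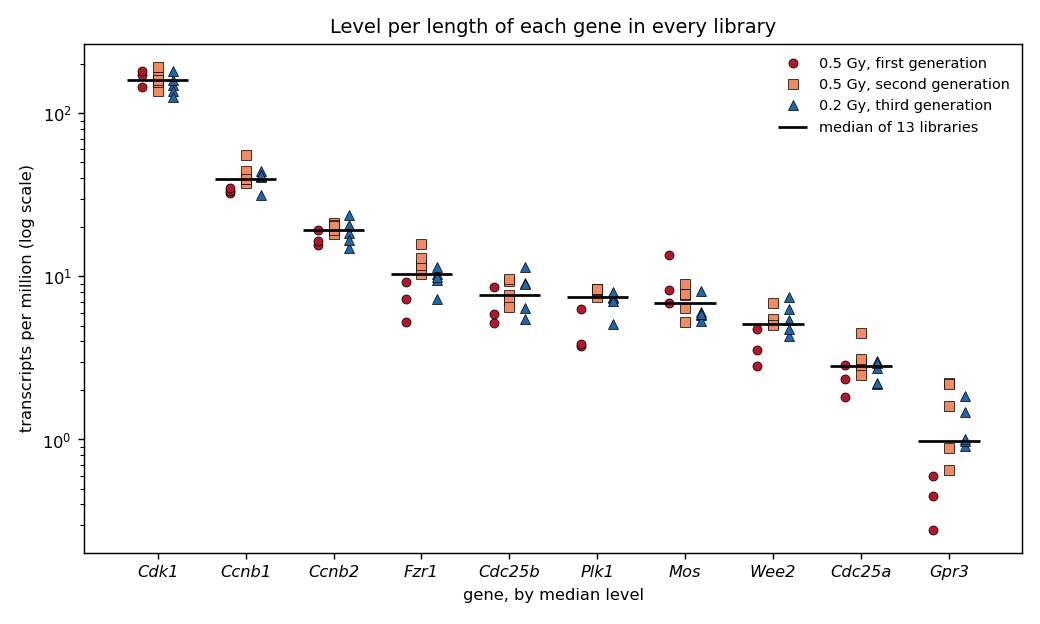
Level per length of the 10 genes, in TPM on a log scale, with 1 point per library coloured by dose and generation and a bar at the median of 13 libraries. Cdk1 sits between 126 and 192 TPM, above every other gene in each library, and Gpr3 between 0.28 and 2.22 TPM, below every other gene.

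Related genes kept the same order in TPM in each of the 13 libraries. Ccnb1 was 1.72 to 2.63 times Ccnb2 in TPM, with a median of 2.08. Cdk1, summed over all its transcripts with the retained introns included, was 2.99 to 5.19 times Ccnb1 in TPM. In CPM their ranges overlapped, at 160 to 218 for Cdk1 and 169 to 280 for Ccnb1. Between the phosphatases, Cdc25b was above Cdc25a in all 13 libraries, by 1.99 to 4.15 times. Wee2, the oocyte kinase, was above its relative Wee1 of dividing cells in all 13, by 1.01 to 4.09 times, and below Cdc25b in all 13, at 0.411 to 0.997 of its level.

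Late libraries of 0.5 Gy, taken 2.5 h or more after irradiation, were set against the early ones of 0 and 1 h, to ask whether the arrest and maturation genes changed while the irradiated oocytes responded to DNA damage. In edgeR's quasi-likelihood test on 22588 genes, 0 of the 10 members passed the call, a Benjamini-Hochberg adjusted p below 0.05 with an absolute log2 fold change over 1, where 0.128% of all genes tested were called. DESeq2, run without an expression filter, also called 0 members, where it called 202 of 46404 genes. At an unadjusted p under 0.05 there were 2 members, Gpr3 and Fzr1, both higher in late libraries, against 9.06% of all genes tested. The median log2 fold change of the members was 0 and the median size 0.16, where all genes tested had a median size of 0.26. For 9 of the 10 members the 95% confidence interval of the log2 fold change stayed within -1 to 1, which held for 47.8% of all genes tested. Interval width and fold size also depend on read depth, and the members were not compared with genes of like level. All members but Gpr3 had a median TPM above that of at least 61.4% of protein-coding genes.

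**Figure D2:**
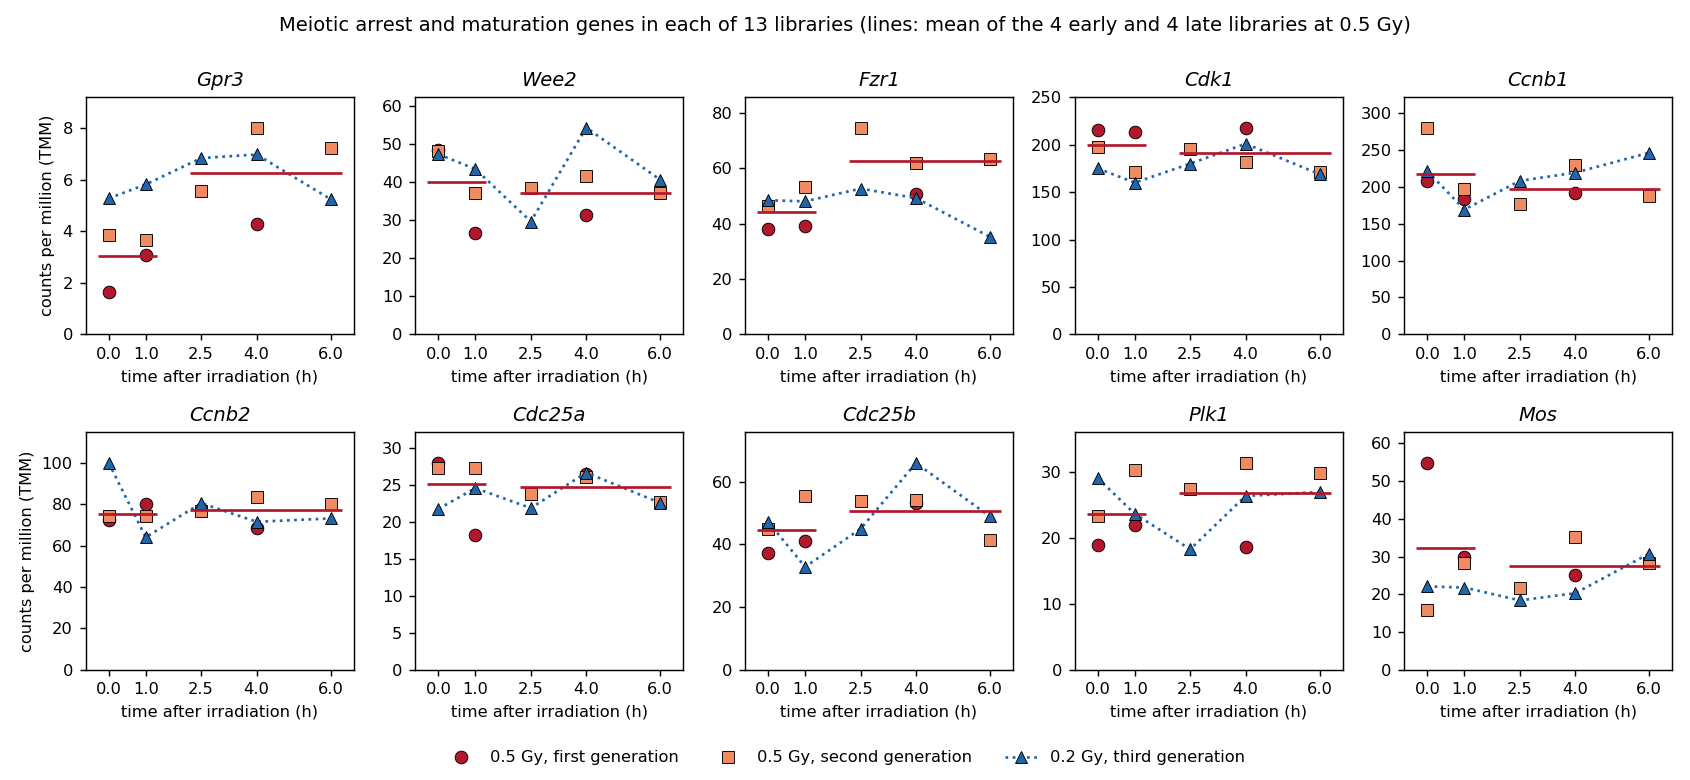
CPM of each gene against time after irradiation in hours, 1 panel per gene with its own axis from 0, with points for single libraries and red lines for the means of the 4 early and 4 late libraries at 0.5 Gy. Gpr3 is the panel in which the late points at 0.5 Gy, from 4.28 to 8.01 CPM, all lie above the early ones, from 1.64 to 3.85.

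Among the genes that maintain arrest, Gpr3 (ENSMUSG00000049649, GRCm38 chr4:133209340-133212536, minus strand) encodes the receptor that raises cAMP in the oocyte. At 0.5 Gy its level was 1.64 and 3.85 CPM before irradiation, 3.09 and 3.64 in the 1 h pair, 5.56 in the 2.5 h library, 4.28 and 8.01 in the 4 h pair and 7.22 in the 6 h library. The 4 late libraries lay above the 4 early ones, a pattern shown by 3.19% of all genes tested in this direction, while 2.14% had all late libraries below. In TPM the sides overlapped, at 0.28 to 0.891 early and 0.595 to 2.22 late, and counts from length-scaled TPM gave a log2 fold change of 1.48 with an edgeR p of 0.00791 and an adjusted p of 0.484. The means were 6.27 ± 1.67 CPM late and 3.06 ± 0.996 early (SD, n = 4 each), a log2 fold change of 1.03 (SE 0.37, 95% confidence interval 0.24 to 1.83) with an edgeR p of 0.0155 and an adjusted p of 0.445. DESeq2 gave a shrunken log2 fold change of 0.85 with an adjusted p of 0.102. The difference of the means was therefore larger than the SD of either side but did not pass correction over all genes. Within the first generation the mean was 2.37 CPM early and 4.28 late, a log2 ratio of 0.86, and within the second it was 3.74 and 6.93, a log2 ratio of 0.89. With the 1 h and 4 h libraries exchanged between the generations, the log2 ratios were 1.60 and 0.71. Gpr3 was measured on few reads, 41 in replicate 1 of 0 h and at most 217 in any library, and 5.88% of its 30 nt sequences also occur in transcripts of other genes, mostly Cd164l2, which overlaps it on the opposite strand. The summed level of 5 red blood cell genes was 2320 to 3490 CPM in the early and 2730 to 6020 in the late libraries of 0.5 Gy, and its part in the Gpr3 values was not tested. At 0.2 Gy Gpr3 stood at 5.27, 5.81, 6.83, 6.97 and 5.24 CPM from 0 to 6 h, all above the highest early value of 0.5 Gy.

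Fzr1 (ENSMUSG00000020235, GRCm38 chr10:81366222-81378516, minus strand), the activator of the anaphase-promoting complex also called Cdh1, was at 38.1 and 46.2 CPM before irradiation, 39.0 and 53.2 in the 1 h pair, 74.6 in the 2.5 h library, 50.5 and 61.8 in the 4 h pair and 63.4 in the 6 h library of 0.5 Gy. The sides overlapped only through replicate 2 of 1 h and replicate 1 of 4 h. The means were 62.6 ± 9.86 CPM late and 44.2 ± 7.05 early (SD, n = 4 each), a log2 fold change of 0.50 (SE 0.18, 95% confidence interval 0.12 to 0.89) with an edgeR p of 0.0151 and an adjusted p of 0.445. Within a generation the log2 ratio of the means was 0.39 in the first and 0.42 in the second, and in both the late libraries lay above the early ones. Exchanged, the log2 ratios were 0.44 and 0.56. Without the 2.5 h library the log2 fold change of Fzr1 was 0.40 and its edgeR p 0.0579. At 0.2 Gy Fzr1 was at 48.4, 48.0, 52.6, 49.2 and 35.2 CPM from 0 to 6 h, with the lowest value at 6 h.

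Wee2 (ENSMUSG00000037159, GRCm38 chr6:40439088-40466813, plus strand) encodes the oocyte kinase that puts the inhibitory phosphate on Cdk1. It was at 48.6 and 48.3 CPM before irradiation, 26.8 and 37.2 in the 1 h pair, 38.5 in the 2.5 h library, 31.3 and 41.6 in the 4 h pair and 37.3 in the 6 h library of 0.5 Gy. The 2 libraries of 0 h were the highest of the 8, yet late and early sides overlapped. The log2 fold change was -0.11 (95% confidence interval -0.57 to 0.34), and -0.26 to 0 in fits without 1 library.

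Of maturation-promoting factor, no subunit changed beyond its spread. Cdk1 (ENSMUSG00000019942, GRCm38 chr10:69335146-69352938, minus strand) was at 216 and 198 CPM before irradiation, 213 and 171 in the 1 h pair, 195 in the 2.5 h library, 218 and 182 in the 4 h pair and 171 in the 6 h library of 0.5 Gy. Late and early libraries covered the same range, at 192 ± 19.8 and 199 ± 20.9 CPM (SD, n = 4 each). The log2 fold change was -0.06 (95% confidence interval -0.37 to 0.25), and -0.11 to 0 in fits without 1 library. The highest Cdk1 library over both doses was 1.36 times the lowest, the narrowest range among the 10 genes.

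Ccnb1 (ENSMUSG00000041431, GRCm38 chr13:100778650-100786570, minus strand), the cyclin whose destruction by the anaphase-promoting complex keeps Cdk1 low, was at 208 and 280 CPM before irradiation, 184 and 197 in the 1 h pair, 176 in the 2.5 h library, 192 and 230 in the 4 h pair and 187 in the 6 h library of 0.5 Gy. The highest value was replicate 2 of 0 h, and the log2 fold change was -0.15 (95% confidence interval -0.51 to 0.21). It was -0.01 without that library and -0.24 to -0.01 over the fits without 1 library. As 28.1% of the 30 nt sequences of Ccnb1 also occur in transcripts of other genes, mostly of Ccnb1-ps, part of its reads could not be placed with certainty. Ccnb2 (ENSMUSG00000032218, GRCm38 chr9:70407692-70421547, minus strand), the second B-type cyclin, shared no such sequence with another gene. It was at 72.4 and 74.6 CPM before irradiation, 80.3 and 74.6 in the 1 h pair, 76.8 in the 2.5 h library, 68.6 and 83.6 in the 4 h pair and 80.3 in the 6 h library of 0.5 Gy. Its early and late values overlapped, with a log2 fold change of 0.03 (95% confidence interval -0.27 to 0.33).

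No activator of Cdk1 was called either. Cdc25b (ENSMUSG00000027330, GRCm38 chr2:131186949-131198497, plus strand), the phosphatase needed for meiotic resumption in mouse oocytes, was at 37.2 and 44.9 CPM before irradiation, 41.0 and 55.3 in the 1 h pair, 53.8 in the 2.5 h library, 53.1 and 54.2 in the 4 h pair and 41.3 in the 6 h library of 0.5 Gy. The sides overlapped, with a log2 fold change of 0.18 (95% confidence interval -0.2 to 0.56). Fits without 1 library gave 0.11 to 0.32 for Cdc25b. Cdc25a (ENSMUSG00000032477, GRCm38 chr9:109875579-109893895, plus strand), which also removes the inhibitory phosphate, ranged from 18.3 to 28.0 CPM in early and from 22.7 to 26.5 in late libraries. Plk1 (ENSMUSG00000030867, GRCm38 chr7:122159439-122169873, plus strand), a kinase that activates Cdc25 and acts on the spindle, ranged from 19.0 to 30.3 CPM early and from 18.6 to 31.4 late. Their log2 fold changes were -0.03 for Cdc25a (95% confidence interval -0.44 to 0.38) and 0.18 for Plk1 (-0.3 to 0.66). For Plk1 the value was 0.03 with a replicate block for generation and 0.09 to 0.33 in fits without 1 library. Plk1 shares 15.5% of its 30 nt sequences with the pseudogene Plk-ps1, and its replicates at 4 h differed 1.69-fold.

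Mos (ENSMUSG00000078365, GRCm38 chr4:3870657-3872105, minus strand), the kinase that starts the MAP kinase cascade of maturation, had the widest gap between duplicates of any member, at 0 h. It was at 54.8 and 15.9 CPM in the 0 h libraries of 0.5 Gy, a 3.45-fold gap between replicates. The 1 h pair held 29.9 and 28.3 CPM, the 2.5 h library 21.6, the 4 h pair 25.1 and 35.3 and the 6 h library 28.3. The late values thus lay inside the range of the early ones, and the log2 fold change was -0.23 (SE 0.32, 95% confidence interval -0.92 to 0.46). It was 0.16 without replicate 1 of 0 h, -0.45 without replicate 2 of 0 h and -0.03 with a replicate block for generation, so that its direction rests on 1 library. The log2 ratio of the means was -0.75 in the first generation and 0.36 in the second as labelled, and -0.23 and 0.13 with the 1 h and 4 h libraries exchanged.

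**Figure D3:**
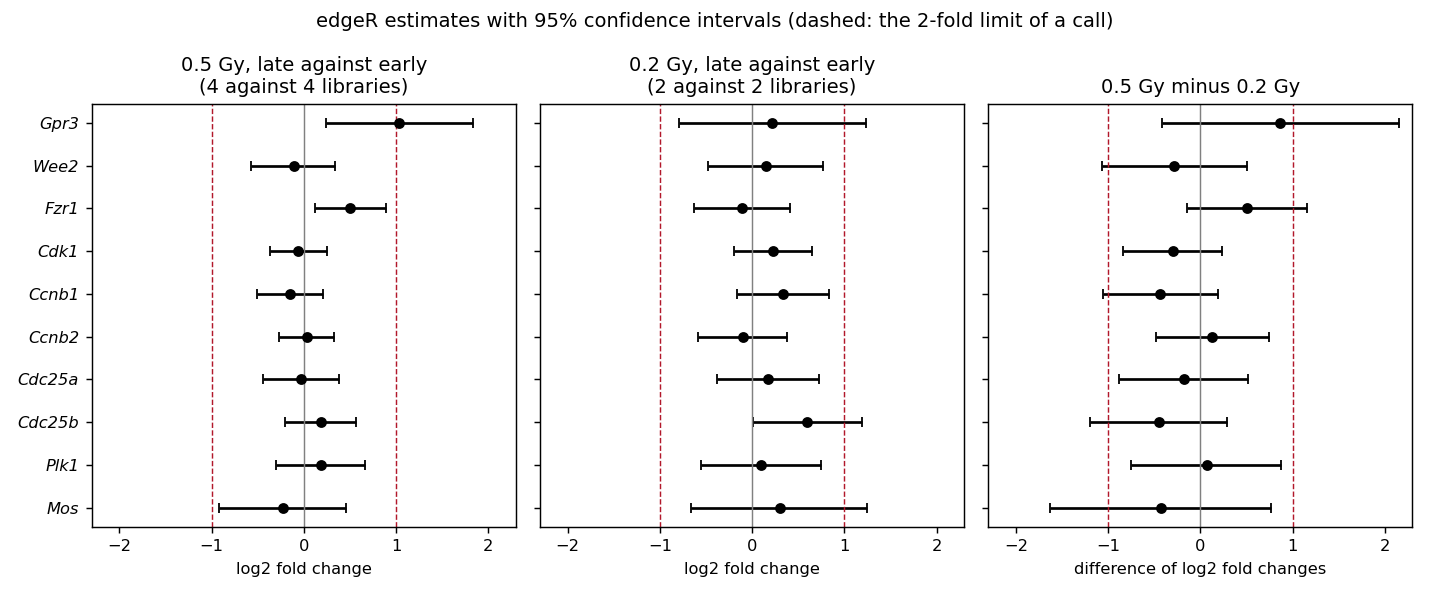
Log2 fold changes of the 10 genes with 95% confidence intervals from edgeR, late against early libraries at 0.5 Gy and at 0.2 Gy, and the difference between doses from the fit of 11 libraries, which leaves out 2.5 h at both doses, with dashed lines at -1 and 1. The intervals of Gpr3 (0.24 to 1.83) and Fzr1 (0.12 to 0.89) lie above 0 at 0.5 Gy, and in the difference between doses each of the 10 intervals includes 0.

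Each time point of 0.5 Gy was also set against 0 h in a fit of 28468 genes, where the spread at the unreplicated times of 2.5 and 6 h was borrowed from the other times. At each time edgeR called 0 members. It called 0% of all genes tested, so this count cannot set the members apart. DESeq2 also called 0 members at each time, but its count over all genes in this comparison was not taken. At an unadjusted p under 0.05 at 1 or more time points there was 1 member, Fzr1 at 2.5 h, against 14.1% of all genes tested. Its log2 fold change there was 0.89 (95% confidence interval 0.11 to 1.67), with an adjusted edgeR p of 0.875. Gpr3 had log2 fold changes of 0.36 for 1 h, 1.10 for 2.5 h, 1.23 for 4 h and 1.43 for 6 h, and the interval at 6 h ran from -0.12 to 2.99. At 1, 2.5, 4 and 6 h the intervals of 6, 2, 4 and 3 of the 10 members stayed within -1 to 1. Of all genes tested, which were not matched to the members in level, 20.8%, 8.52%, 18% and 8.36% did so. For the remaining members a 2-fold change lay inside the interval.

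At 0.2 Gy, late libraries (4 and 6 h) were set against early ones (0 and 1 h) in a model that held 11 libraries, those of 0.5 Gy included, and 28162 genes. Again 0 members were called by edgeR or DESeq2, where edgeR called 0.0462% of all genes tested and unfiltered DESeq2 153 of 47611. At an unadjusted p under 0.05 there was 1 member, Cdc25b, against 7.29% of all genes tested. Cdc25b was at 47.2 and 32.8 CPM in the early libraries, 44.9 in that of 2.5 h, and 65.9 and 48.9 in the late ones. Its log2 fold change was 0.60 (SE 0.27, 95% confidence interval 0.01 to 1.19), with an edgeR p of 0.0467 and an adjusted p of 0.683. Fits without 1 library gave 0.35 to 0.95. It was 0.36 (edgeR p 0.296) without the 1 h library of 0.2 Gy, 0.35 (p 0.315) without that of 4 h, 0.95 (p 0.0175) without that of 0 h and 0.81 (p 0.0272) without that of 6 h, and 0.35 from length-scaled TPM. The other members ranged from -0.11 for Fzr1 to 0.33 for Ccnb1, which was 0.15 without the 1 h library of 0.2 Gy and 0.60 without that of 0 h. The log2 fold change was above 0 in 8 of the 10 members. Their median was 0.2 where that of all genes tested was -0.03, and the part of library differences in this shift was not tested. Cyclin Ccnb2 was at 100 CPM at 0 h and 64.1 at 1 h, a wider gap than between its 2 late libraries, at 71.6 and 73.2.

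The difference between doses was tested itself, as the interaction of dose and side in the same fit. That fit leaves out the 2.5 h libraries, so its late side at 0.5 Gy has fewer libraries than the comparison at 0.5 Gy alone, and its estimates are not the difference of the values given above. No member was called by edgeR or DESeq2, where edgeR called 0.032% of all genes tested and unfiltered DESeq2 127 of 47611. An unadjusted p under 0.05 was reached by 0 members, against 8.14% of all genes tested. Fzr1 came nearest, with 0.51 more on the log2 scale at 0.5 Gy (95% confidence interval -0.14 to 1.16), an edgeR p of 0.114 and an adjusted p of 0.67. Without the 6 h library of 0.2 Gy it was 0.28 (edgeR p 0.427), and without that of 4 h it was 0.81 (p 0.0385, adjusted p 0.627). For Gpr3 the difference was 0.86 (95% confidence interval -0.42 to 2.15), with a p of 0.17 by edgeR. The late against early difference of Gpr3 was thus not shown to differ between the doses, and the intervals of 4 members stayed within -1 to 1. The difference was below 0 in 6 of the 10 members, with a median of -0.23 where that of all genes tested was 0.05.

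Within the genes, the shares of single transcripts were compared over libraries, since a stable gene total can hide a change among its transcripts. Transcripts with 5% or more of the reads of a gene with at least 100 reads in each 0.5 Gy library were taken, 23500 in all and 15 of 6 members. For 3 of the 15 the late and early shares at 0.5 Gy did not overlap, where 4.59% of all such transcripts did not. The 3 are of Cdk1 and Ccnb1, and those of a gene are not independent because its shares add up. They were picked after their values were seen.

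Cdk1-202 (ENSMUST00000119827), a protein-coding transcript, held 68.8% and 69.2% of Cdk1 reads before irradiation with 0.5 Gy and 65.3% and 67.0% in the 1 h pair, against 63.6% in the 2.5 h library, 65.0% and 63.3% in the 4 h pair and 62.1% in the 6 h library. Cdk1-203 (ENSMUST00000123458), a short transcript annotated as a retained intron, held 17.9% to 22.1% in early and 23.1% to 23.6% in late libraries. Ccnb1-207 (ENSMUST00000174038), annotated as protein-coding, held 19.9% to 23.8% early and 24.3% to 29.7% late. The change was thus of a few percentage points in each case, and it did not recur at 0.2 Gy. There Cdk1-202 held 59.2% to 60.7% early and 63.3% to 65.8% late, the opposite direction, and Ccnb1-207 held 26.7% to 27.3% early and 22.6% to 25.2% late. The shares are salmon's division of short reads among overlapping transcripts, and their estimation error is not in the spread given.

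**Figure D4:**
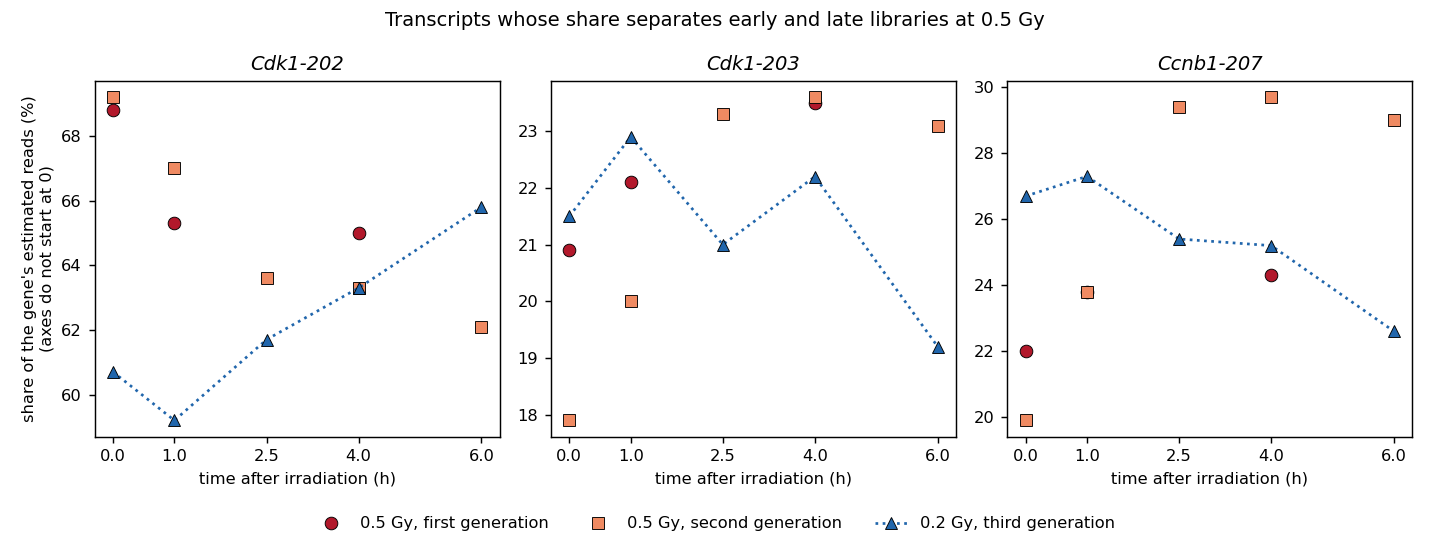
Share of the gene's estimated reads, in percent, held by Cdk1-202, Cdk1-203 and Ccnb1-207 against time after irradiation in hours, with 1 point per library and axes that do not start at 0. At 0.5 Gy the late libraries of Cdk1-202, from 62.1% to 65.0%, lie below the early ones, while at 0.2 Gy they lie above.

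Of 41 further genes of arrest and maturation, 40 passed the filter. In edgeR 0 of them were called in any comparison, where between 0% and 0.128% of all genes tested were called. Late against early at 0.5 Gy, 1 had an unadjusted p under 0.05 upward and 3 downward, 4 of 40 against 9.06% of all genes tested, so that the number is near the background and the values of these genes are given as a description. Gnas, the stimulatory G protein subunit through which Gpr3 acts, was at 239 to 355 CPM early and 153 to 274 late, and its log2 fold change was -0.57 (95% confidence interval -1.01 to -0.14, adjusted edgeR p 0.445). Wee1, the somatic relative of Wee2, was at 27.1 to 39.8 CPM early and 12.5 to 25.0 late, with a log2 fold change of -0.58 (-1.11 to -0.04). The late libraries of Wee1 all lay below the early ones, as did those of 2.14% of all genes tested, while those of Gnas overlapped them. Pde3a, the phosphodiesterase that lowers cAMP in the oocyte, had -0.49 (-0.97 to -0.01). The upward gene was Rps6ka1, a kinase downstream of MAP kinase, with 0.78 (0.18 to 1.37). Its late libraries, at 12.8 to 21.6 CPM, all lay above the early ones, at 5.96 to 12.6, as did those of 3.19% of all genes tested. An unadjusted edgeR p under 0.05 against 0 h was reached at 6 h by Wee1 (log2 fold change -1.40) and Pde3a (-1.11). It was also reached at 4 h by Rps6ka1 (1.11) and at 2.5 h by Pkmyt1 (1.74, 95% confidence interval 0.02 to 3.47). Of all genes tested, 14.1% had such a p at 1 or more time points.

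At 0.2 Gy the pathway genes with the smallest p were Cdc27 (log2 fold change 0.49), a subunit of the anaphase-promoting complex, Bub1b (0.39), of the spindle checkpoint, and Cdc20 (0.55), the other activator of that complex. Only Cdc27, 1 of 40, had an unadjusted p under 0.05, against 7.29% of all genes tested, at 0.0479 by edgeR with an adjusted p of 0.683. The log2 fold change was above 0 in 32 of the 40, against 13440 of all 28162 genes tested. Its median was 0.21 where that of all genes tested was -0.03. The early libraries of 0.2 Gy had reads of 42402 and 42612 genes, the late ones of 38586 and 38388. Their summed red blood cell level was 2370 and 2400 CPM early and 4250 and 2790 late. The part of these differences in the shift was not tested. In the difference between doses 4 of 40 had an unadjusted p under 0.05, against 8.14% of all genes tested, and in all 4 the log2 fold change was lower at 0.5 Gy than at 0.2 Gy. They were Cdc27 (-0.78), Rps6ka3 (-0.81) and Pde3a (-0.95), each with an adjusted edgeR p of 0.564, and Gnas (-0.74, adjusted edgeR p 0.606). The difference was below 0 in 32 of the 40, against 13315 of all 28162 genes tested. Its median was -0.22 where that of all genes tested was 0.05. The same early libraries of 0.2 Gy enter this difference, and their part in it was not tested. Gpr12, a receptor related to Gpr3, was at 0 to 0.452 CPM and was not tested.

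Over 13 libraries the correlation of log2 CPM between 2 members ran from -0.56 for Cdk1 and Plk1 to 0.59 for Wee2 and Cdc25a, as a description of libraries that differ together in depth, generation and composition. Over the 8 libraries of 0.5 Gy it ran from -0.93 for the same pair to 0.84 for Gpr3 and Fzr1. For each member the 2 protein-coding genes most like it were sought among 14405, so that each r given was picked as among the highest. How high such r would be by chance was not tested. Fam219b (r = 0.96) and Sdc4 (0.92) were most like Gpr3. For Fzr1 they were Tubgcp2 and Fastk (0.90 each). For Cdk1 they were Phlpp1 and Rbbp9 (0.91 each). Ccnb1 was most like Add3 (0.88) and Kif23 (0.85), a kinesin of cell division, and Ccnb2 most like Eif5a (0.81) and Sympk (0.77). Wee2 was nearest to Rnf34 (0.84) and Pih1d2 (0.82), Cdc25a to Rapgef4 (0.89) and Hltf (0.86), and Cdc25b to Maml3 (0.85) and Trim32 (0.81). Plk1 was nearest to Cndp2 and Slc25a18 (0.91 each), and Mos to Elof1 and Nhp2 (0.90 each). No member was among the nearest genes of another.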

How the data were processed

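RNA-seq of 13 oocyte libraries was analysed. The authors made the estimated counts and the TPM values of each transcript with salmon, 1 table per library, without scaling libraries to each other and without a filter. The authors' own comparison tables (fold changes and p-values from DESeq2) and their merged table were not used. Gene values are rounded sums of the estimated counts over transcripts that GENCODE (GRCm38) gives to a gene. This left out 402 transcripts with at most 0.495% of the reads of a library. After TMM normalization and the filterByExpr filter, gene sums were tested with edgeR 4.0.16 in R 4.3.3, with adjusted p-values by Benjamini-Hochberg over all genes tested. CPM in the text are from all 13 libraries, and log2 CPM used a prior count of 2. DESeq2 1.42.0 with its beta prior, DESeq2 size factors, no filter, length-scaled TPM, a block for generation and fits without 1 library were the alternatives. Depth was 15709549 to 30430104 reads, and a library without reads of a gene allows up to 3, by counting error alone. The code was tested on simulated counts. Named were the 10 members, of 41 pathway genes those called or else the 3 with the smallest p in each comparison, and the 2 genes most like each member. The members and lists were chosen with earlier results of these data known. Motifs were searched in 32851 RefSeq windows with Python 3.11.15. Late and early sides pool time points, so their SD includes change over time.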

Additional observations from a re-analysis of the deposited data

Results flagged for a closer look

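Of 30 sets of libraries examined for a value far from the others, 3 had one. The sets were the 4 early and 4 late libraries of 0.5 Gy and the 5 of 0.2 Gy for each of 10 members. How often chance would set a value apart in sets of this size was not tested. Fzr1 was lowest at 6 h of 0.2 Gy, at 35.2 CPM, while the other 4 libraries of that dose held 48.0 to 52.6 CPM. Cdc25a was lowest in replicate 1 of 1 h at 0.5 Gy, at 18.3 CPM against 27.3 to 28.0 CPM in the other early libraries. Cdc25b was lowest at 6 h of 0.5 Gy, at 41.3 CPM, while the other late libraries held 53.1 to 54.2 CPM. No difference between doses passed the adjusted threshold for a member.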

How the results depend on the processing

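None of the 4 counts of called members left 0 under the alternatives run, and no member was called in any of them. For Gpr3 late against early at 0.5 Gy, the fits without 1 library gave log2 fold changes of 0.83 to 1.19 with adjusted edgeR p of at least 0.298, and for Fzr1 0.40 to 0.62 with at least 0.264. Some members near 0 changed sign. Without a filter Cdc25a at 0.5 Gy was 0.02. From length-scaled TPM, Cdk1 at 0.5 Gy was 0.07, Ccnb2 at 0.5 Gy -0.03, Cdc25a at 0.2 Gy -0.08, Cdc25a in the difference between doses 0.05 and Plk1 in it -0.04. The replicate number marks the generation. Replicate differences correlated by 0.163 (0 and 1 h), 0.097 (0 and 4 h) and 0.138 (1 and 4 h) over 22588 genes, so that the numbers were not taken as pairs. A replicate block for generation gave 0.87 for Gpr3 and 0.41 for Fzr1 at 0.5 Gy and -0.04 for Plk1 in the difference between doses, and the block with 1 and 4 h libraries exchanged gave 0.03 for Cdc25a at 0.5 Gy. The block changed no other direction or call. Fits without 1 library ranged, at 0.5 Gy, from -0.15 to 0.03 for Cdc25a, from -0.45 to 0.16 for Mos (the highest without replicate 1 of 0 h) and from -0.01 to 0.10 for Ccnb2. At 0.2 Gy they ranged from -0.39 to 0.32 for Ccnb2, -0.05 to 0.31 for Plk1, -0.01 to 0.43 for Gpr3, -0.10 to 0.35 for Wee2, -0.39 to 0.13 for Fzr1 and -0.02 to 0.55 for Mos. In the difference between doses they ranged from -0.28 to 0.42 for Ccnb2 and from -0.15 to 0.27 for Plk1. The cause of these changes was not tested. Counts of all genes called moved more. They were 29 at 0.5 Gy, 13 at 0.2 Gy and 9 in the difference, against 58, 32 and 22 without a filter and 202, 153 and 127 by DESeq2, which was also run without that filter, on 46404, 47611 and 47611 genes, so that its counts differ in both test and filter. The block gave 18 at 0.5 Gy, the exchanged block 7 at 0.2 Gy and 1 in the difference, and fits without 1 library gave 10 to 37, 1 to 18 and 0 to 13. At 0.2 Gy, length-scaled TPM gave 6 higher and 6 lower genes against 10 and 3. Without a filter the median log2 fold change of all genes at 0.2 Gy was -0.16. Depth limits Gpr3 most, with 41 reads in 1 library.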
